A study of Mus musculus with 4 samples.

Results

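*Atoh1*, *Pou4f3*, *Gfi1*, *Insm1*, *Ikzf2*, *Barhl1* and *Lhx3* encode 7 transcription factors of hair cell fate. Their mRNA was followed in control cochlear ducts and in ducts with *Tbx2* deleted in SOX2+ cells. The genes were chosen by symbol, as every gene probe that carries 1 of these names. They make up 7 of the 29924 gene names on the array, with 9 probes between them. RNA from E14.5 cochlear ducts was compared on 4 Agilent 2-colour arrays, a platform on which a mutant and a control sample carry different dyes and bind the same probes. Each array held 1 pool of *Sox2-Tbx2LOF* ducts against 1 pool of control ducts, so that there were 4 mutant and 4 control pools. All embryos were of the NMRI strain, and their mothers received 4 mg of tamoxifen at E12.5. *Sox2-Tbx2LOF* embryos carried Sox2(creERT2) and Tbx2(fl/fl), that is, a tamoxifen-dependent Cre recombinase inserted at *Sox2* and 2 *loxP*-flanked *Tbx2* alleles. Controls are labelled Tbx2(fl/n.d.) and were cre-negative by the study's methods. Loss of *Tbx2*, the Cre and its allele at *Sox2* thus came together in the mutant pools and cannot be told apart. Arrays 1 and 2 held female pools, arrays 3 and 4 male ones. The mutant RNA was in Cy5 on arrays 1 and 3 and in Cy3 on arrays 2 and 4. The whole duct was taken after removal of the spiral ganglion, whereas the Cre acts in SOX2+ cells, so each value averages over recombined and other cells.

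Hair cells are the sound receptors of the organ of Corti. The basic helix-loop-helix factor ATOH1 is required for them to form, and Notch target genes of the Hes and Hey families repress it. ATOH1 is followed by a set of further transcription factors, of which some are shared by all hair cells and some act in outer hair cells. TBX2, a T-box factor, is made on the inner side of the organ of Corti, where inner hair cells form, and how its loss bears on the genes of hair cell fate at this early stage is the question of the comparison.

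All 7 genes were measured above the local background in all 8 pools, each by its brightest probe. At E14.5 none of the 7 genes differed between the genotypes beyond the spread of the pools. By the paper, hair and supporting cells have not yet differentiated at this stage. It reports by in situ hybridisation that *Insm1* reached the innermost hair cells of this mutant at a later embryonic stage. In limma's moderated test, 0 of 7 passed at a Benjamini-Hochberg adjusted p below 0.05 over the 21042 genes tested, against 5.18% of all genes, and 0 of 7 passed with a fold of at least 1.5 as well, against 0.442%. At an unadjusted p below 0.05 the count was 1 of 7, *Lhx3*, against 20.2% of all genes. The mutant and control levels overlapped for each of the 7 genes, whereas they were apart for 4.28% of all genes, and 0 of 7 had a ratio of the same sign on all 4 arrays, against 18.2%. For 4 of 7, against 31.9% of all genes, the same dye was the brighter on all 4 arrays. With the dyes swapped, such ratios cannot share a sign, and the levels also keep the dye effect. Neither count is thus free of the dye. The median log2 ratio of mutant over control was 0.039 over the 7 genes and 0.0024 over all genes tested. Since the RNA came from whole ducts, fewer cells of a type and less RNA per cell cannot be told apart, and each p reflects the spread between these pools, which the methods describe as independent and sorted by sex. Fitted ratios are also given without single arrays where this changed their sign.

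**Figure D1:**
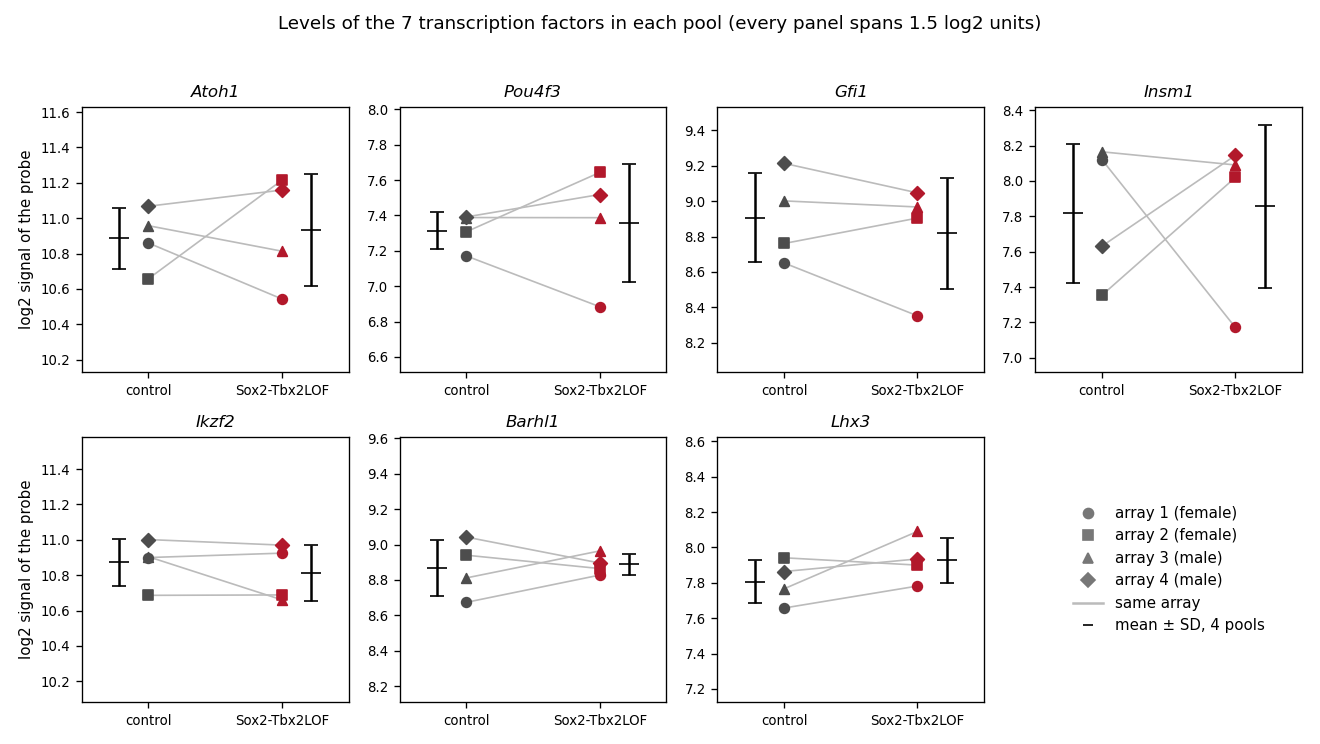
Log2 signal of the probe of each gene (vertical axis, 1.5 log2 units in every panel) in the 4 control pools (grey) and the 4 *Sox2-Tbx2LOF* pools (red), with a line joining the 2 pools of an array and the mean ± SD of 4 pools beside them. The points of both groups overlap in every panel, and the lines run both up and down.

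*Atoh1*, the gene that starts hair cell differentiation, was read by 1 probe on chromosome 6 of mm9 from 64681161 to 64681220. Levels here are log2 signals of that probe after normalisation between channels and arrays. Between pools in different dyes they also carry any effect of the dye on the gene, and they cannot be compared between genes. In mutant pools 1 to 4 the log2 signal of *Atoh1* was 10.54, 11.22, 10.81 and 11.16. In control pools 1 to 4 it was 10.86, 10.66, 10.96 and 11.07. On this scale, which keeps the dye effect, the lowest and the highest pool were both mutant. After the mean of each dye was taken away, mutant pool 1 was still the lowest. The highest was then control pool 4 (0.30, against 0.17 for mutant pool 2). Mutant over control gave log2 ratios of −0.32, 0.56, −0.14 and 0.09 on arrays 1 to 4, with a mean of 0.047 ± 0.38 (SD, n = 4). In limma its SE was 0.072 and its adjusted p 0.777. It was negative on the arrays with the mutant in Cy5 and positive on those with the mutant in Cy3, and the effect of the dye on *Atoh1* itself passed (adjusted p = 0.0435 from limma). Without array 2 the fitted log2 ratio of *Atoh1*, with the dye term, was −0.069.

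*Pou4f3* encodes a POU-domain factor that acts after ATOH1 and is needed for hair cells to mature and survive. Its log2 signal was 6.88, 7.64, 7.39 and 7.52 in mutant pools 1 to 4 and 7.17, 7.31, 7.39 and 7.39 in control pools 1 to 4. On these levels, which keep the dye effect, the mutant pools spread more widely (SD 0.33) than the control pools (SD 0.10). Mutant pool 1 was the lowest and mutant pool 2 the highest of the 8. After the mean of each dye was taken away, the mutant pools ran from −0.36 to 0.21 and the control pools from −0.26 to 0.15. The mutant was higher on 2 arrays and lower on 2, and the log2 ratio averaged 0.044 ± 0.26 (SD, n = 4; SE 0.056 and adjusted p = 0.728 in limma). Its sign turned without array 2 (−0.0086) and without array 3 (−0.028).

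*Gfi1* encodes a zinc-finger repressor that hair cells need downstream of POU4F3. It was read by 1 probe on chromosome 5 of mm9 from 108145719 to 108145778. In mutant pools 1 to 4 its log2 signal was 8.35, 8.90, 8.97 and 9.05, and in control pools 1 to 4 it was 8.65, 8.76, 9.002 and 9.21. In both genotypes the female pools of arrays 1 and 2 were below the male pools of arrays 3 and 4. With 2 arrays per sex, sex cannot be told apart from array, and how many of all genes share this order was not counted. Within arrays the mutant was lower on 3 of 4, and the log2 ratio averaged −0.089 ± 0.19 (SD, n = 4; SE 0.062 and adjusted p = 0.486 in limma). This ratio stayed below 0 whichever array was left out, between −0.17 and −0.011.

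**Figure D2:**
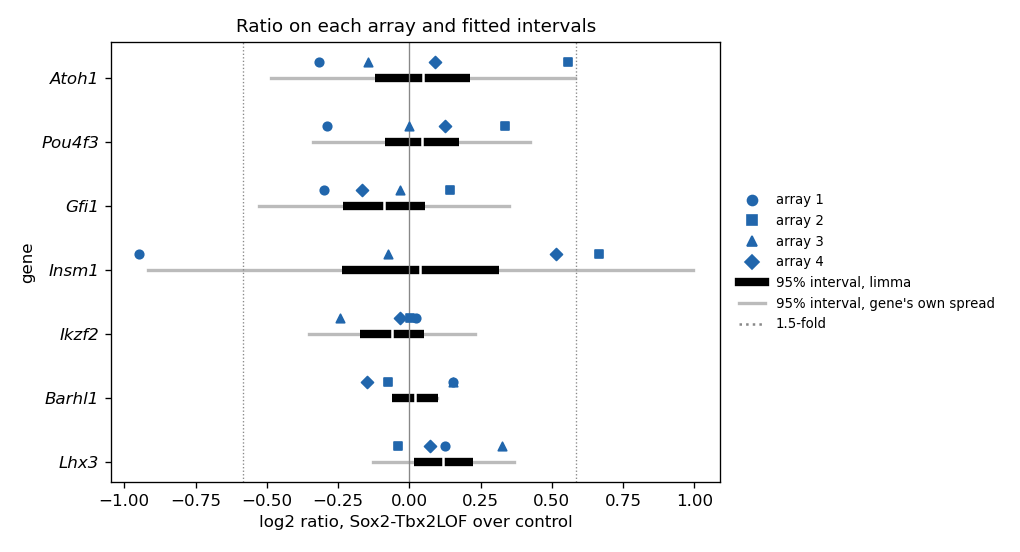
Log2 ratio of mutant over control for each gene (horizontal axis) on each of the 4 arrays (blue symbols), with the 95% interval of the limma fit (black bar, white tick at the mean) and that from the gene's own spread over the arrays (grey line, hidden behind the black bar for *Barhl1*). All black bars lie inside the dotted lines at 1.5-fold, and the *Insm1* symbols reach from −0.95 to 0.67.

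*Insm1*, a zinc-finger gene that is switched on for a time in young outer hair cells and keeps them from turning towards inner hair cells, had the widest spread of ratios of the 7. Its probe spans 146050603 to 146050662 of chromosome 2 in mm9. The log2 signal was 7.17, 8.02, 8.09 and 8.14 in mutant pools 1 to 4, and 8.12, 7.35, 8.16 and 7.63 in control pools 1 to 4. Mutant pool 1 stood alone below the other mutant pools, while the controls fell into high pools on arrays 1 and 3 and low pools on arrays 2 and 4. The high control pools were in Cy3 and the low ones in Cy5. The log2 ratio was −0.95, 0.67, −0.07 and 0.51 on arrays 1 to 4 and averaged 0.039 ± 0.73 (SD, n = 4; SE 0.12 and adjusted p = 0.898 in limma). Cy3 was the brighter dye on 4 of 4 arrays, by a fitted log2 difference of 0.55 that passed (Cy5 over Cy3 −0.55, adjusted p = 0.0261 from limma). Averaged over the swapped dyes of a sex, the mutant differed from the control by a log2 ratio of −0.14 in female and 0.22 in male pools. Leaving out array 3 gave −0.18 and leaving out array 1 gave 0.26, neither of which passed.

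*Ikzf2*, which encodes the zinc-finger factor Helios of maturing outer hair cells, was read by 2 tested probes. The brighter one, on chromosome 1 of mm9 from 69577853 to 69577912, had log2 signals of 10.92, 10.69, 10.66 and 10.97 in mutant pools 1 to 4 and of 10.90, 10.69, 10.90 and 11.001 in control pools 1 to 4. The pools of an array lay close together except on array 3, where the mutant was lower. The mean log2 ratio of this probe was −0.062 ± 0.12 (SD, n = 4; SE 0.048 and adjusted p = 0.537 in limma). The other probe, from 69584008 to 69584067 on the same chromosome, gave 0.081 ± 0.11 (SD, n = 4; adjusted p = 0.344 from limma over all probes). The probes thus differed in sign and neither passed. The mean over both was 0.0096, and without array 3 the brighter probe gave 0.0052.

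*Barhl1*, a homeobox gene of the *Atoh1* pathway that hair cells need to persist, had the narrowest interval of the 7. Its tested probe is placed in the files at 28763200 to 28763239 of chromosome 2 in mm9. The log2 signal was 8.83, 8.86, 8.96 and 8.90 in mutant pools 1 to 4, and 8.67, 8.94, 8.81 and 9.04 in control pools 1 to 4. The mutant pools lay inside the range of the control pools. The log2 ratio averaged 0.021 ± 0.16 (SD, n = 4; SE 0.035 and adjusted p = 0.794 in limma). Cy5 was the brighter dye on 4 of 4 arrays, opposite to *Atoh1*, and this dye effect passed (adjusted p = 0.0447 from limma). A second *Barhl1* probe (28763253 to 28763312), close to the tested one, did not rise well above background in any pool and could not be tested. The probes thus disagree on whether *Barhl1* was detected, and the reason was not tested.

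*Lhx3*, a LIM-homeodomain gene expressed in hair cells, came closest to a difference. Its probe spans 26055746 to 26055805 of chromosome 2 in mm9. In mutant pools 1 to 4 its log2 signal was 7.78, 7.90, 8.09 and 7.93, and in control pools 1 to 4 it was 7.66, 7.94, 7.77 and 7.86. The mutant was the higher pool on 3 of 4 arrays, but the lowest mutant pool was below 2 of the control pools. The log2 ratio averaged 0.12 ± 0.15 (SD, n = 4; SE 0.044 in limma), with a p of 0.0285 before and 0.187 after adjustment over all genes. It remained above 0 without any single array, between 0.070 and 0.17, and reached 0.22 on the authors' own normalisation, where it did not pass either.

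A test that was not passed leaves a range of changes open, and this range differed between the genes. By the limma interval at 95%, the change in either direction was at most 1.24-fold for *Insm1*, 1.16-fold for *Atoh1* and 1.13-fold for *Pou4f3*, and the narrowest interval, that of *Barhl1*, ended at 1.07-fold. These intervals lean on the spread of all genes, which entered as a prior of 5.65 degrees of freedom beside the 2 of the arrays. From a gene's own spread alone the bounds were 1.99-fold for *Insm1*, 1.5-fold for *Atoh1*, 1.44-fold for *Gfi1*, 1.34-fold for *Pou4f3*, 1.29-fold for *Lhx3*, 1.28-fold for *Ikzf2* and 1.07-fold for *Barhl1*. Both sets of bounds are on ratios with a background offset, which narrows the spread of dim probes. On Agilent's processed signals, without that offset, the SD of the mutant pools was 0.652 for *Pou4f3*, against 0.33, and 0.706 for *Insm1*, against 0.46, so the bounds of these genes are limits on that scale only.

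A difference of the genotype effect between the sexes was not detected for the 7 genes. In limma, 0 of 7 passed for male minus female pools, 0 had an unadjusted p below 0.05, and 0% of all genes passed. The differences in log2 ratio ran from −0.15 for *Ikzf2* to 0.36 for *Insm1*, and *Atoh1* had a log2 ratio of 0.12 in female and −0.026 in male pools. With 2 arrays per sex the fit had 1 residual degree of freedom.

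Dye and array moved with the levels of these genes. The effect of the dye passed for 3 of 7 (*Atoh1*, *Insm1* and *Barhl1*) against 13.3% of all genes, and the same dye was the brighter on all 4 arrays for 4 of 7 (those and *Pou4f3*) against 31.9%. After the mean of each dye was taken away, both pools of array 1 were below 0 for 5 of 7 genes, against 39.3% of all genes, and both pools of array 4 were above 0 for 6 of 7, against 34.7%. Mutant pool 1 was then the lowest of the 8 for *Atoh1*, *Pou4f3*, *Gfi1* and *Insm1*, and control pool 1 was the lowest for *Barhl1* and *Lhx3*. *Ikzf2* departed from this order, with mutant pools 2 and 3 and control pool 2 low. Whether stage, dissection, sex or hybridisation had a part in this order was not tested.

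**Figure D3:**
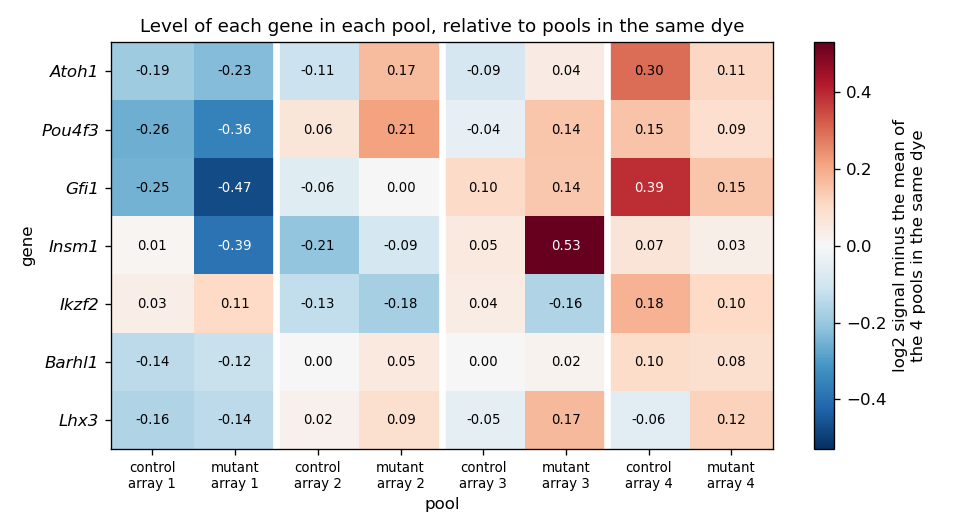
Log2 signal of each gene (rows) in each of the 8 pools (columns, grouped by array) minus the mean of the 4 pools in the same dye, in colour and as printed values. The array 1 columns are blue for most genes and the array 4 columns red, in control and mutant pools alike.

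The distance between the lowest and the highest pool holds the variation of tissue, array and measurement together, which cannot be told apart here. On the same dye-centred log2 scale the range over the 8 pools was 0.92 for *Insm1* and 0.86 for *Gfi1*, more than for 98.8% and 98.5% of all genes tested. It was 0.57 for *Pou4f3* and 0.52 for *Atoh1*, more than for 94.6% and 93.1%. *Ikzf2* (0.36), *Lhx3* (0.33) and *Barhl1* (0.24) were closer to the median of all genes, 0.22. The widest ranges were thus those of *Insm1*, *Gfi1*, *Pou4f3* and *Atoh1*, all of them above the 90th percentile of all genes, 0.46.

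The levels of several of the genes ran in parallel over the pools of both genotypes, although no pair passed after adjustment. Pearson's r was computed over the 8 pools, dye-centred, for each of the 21 pairs. It was 0.904 for *Atoh1* and *Barhl1* (Spearman's rho 0.952, exact permutation within dye p = 0.00521), 0.891 for *Gfi1* and *Barhl1* (rho 0.905, exact permutation p = 0.00694) and 0.907 for *Pou4f3* and *Barhl1* (rho 0.833, exact permutation p = 0.00868). Adjusted over the 21 pairs each of these r had a p of 0.0608, by the same exact permutation, and 0 pairs were below 0.05. Without the 2 pools farthest from the median of the first gene, r was 0.854, 0.851 and 0.53, so that the relation of *Pou4f3* and *Barhl1* rests on the 2 pools of array 1. *Atoh1* and *Pou4f3* had r = 0.835 and rho = 0.929, and r was 0.85 without 2 pools. Other pairs of similar rank fell without 2 pools. For *Gfi1*, r went from 0.849 to 0.645 with *Atoh1* and from 0.83 to 0.146 with *Pou4f3*. For *Pou4f3* and *Lhx3* it went from 0.802 to 0.454. By contrast, r with *Lhx3* rose from 0.533 to 0.791 for *Gfi1* and from 0.524 to 0.818 for *Atoh1*. *Ikzf2* stood outside, with r of −0.559 to 0.066 with the other genes. The permutations moved single pools within a dye and so treated 8 pools as independent, although the pools of an array share its hybridisation, with a correlation of the channels of 0.58 over all genes. Each dye or sex holds only 4 pools, too few for a value of its own.

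The genes whose pattern over the 8 pools was most like that of a factor, by Pearson's r on the same scale, were mostly outside the field of hair cells. They were *Camp* (0.991) and *Ablim3* (0.986) for *Atoh1*, *Tmem255b* (0.999) and *Sap25* (0.998) for *Pou4f3*, and *6720462K09Rik* (0.992) and *Gm8437* (0.989) for *Gfi1*. For *Insm1* they were *Atp6v1g2* (0.986) and *Ccrl2* (0.975), and for *Ikzf2* they were *Utp23* (0.994) and a transcript without a symbol (0.991). For *Barhl1* they were *Cyp2t4* (0.997) and *1810008I18Rik* (0.996), and for *Lhx3* *Snrpd2* (0.996) and *Yipf3* (0.992). With 8 points and 21042 genes to choose from, such values describe the pools and nothing more.

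E-boxes, the sites of basic helix-loop-helix factors such as ATOH1, were looked for in the promoters of the 7 genes, because *Barhl1* had the highest r with *Atoh1* among them. That r did not pass after adjustment over the pairs, and the search is no test of a link between these genes. RefSeq promoters (GRCm38.p6, windows of 300 bases that end shortly after a start) were matched for *Atoh1*, *Gfi1*, *Barhl1* and *Lhx3*, 7 windows in all. *Insm1*, *Ikzf2* and *Pou4f3* had no entry. The letters CAGCTG, searched on both strands, were in 1 place in each of the 2 *Barhl1* windows, at −15 and −99 bases from the start. Of all 32851 promoters 16.3% hold them. The letters CAGATG were in 1 of the *Lhx3* windows, on the opposite strand at −215 bases from the start, against 17.2% of all promoters. The T-box core GGTGTGA, which 3.98% of all promoters hold, was in 0 of the 7 windows. None of these matches is a measured binding site, and no match says only that the letters are not in the window. The windows with a match are shown 5′ to 3′ on the strand of the gene, with the match in capitals, which reads CATCTG, the reverse complement of CAGATG, in *Lhx3*.
*Barhl1*, chr2:28912446-28912745, minus strand: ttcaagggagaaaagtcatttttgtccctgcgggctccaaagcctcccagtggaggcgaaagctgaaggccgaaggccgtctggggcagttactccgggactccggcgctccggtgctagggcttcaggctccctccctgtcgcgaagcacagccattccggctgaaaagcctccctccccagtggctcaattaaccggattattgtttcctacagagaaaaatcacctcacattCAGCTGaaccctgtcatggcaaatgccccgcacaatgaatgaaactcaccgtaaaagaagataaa
*Barhl1*, chr2:28916619-28916918, minus strand: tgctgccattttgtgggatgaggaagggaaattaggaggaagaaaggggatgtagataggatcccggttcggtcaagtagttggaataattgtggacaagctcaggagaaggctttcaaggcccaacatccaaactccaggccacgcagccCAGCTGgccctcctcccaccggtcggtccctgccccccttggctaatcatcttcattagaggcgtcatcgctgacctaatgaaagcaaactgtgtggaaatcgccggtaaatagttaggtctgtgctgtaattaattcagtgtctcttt
*Lhx3*, chr2:26206526-26206825, minus strand: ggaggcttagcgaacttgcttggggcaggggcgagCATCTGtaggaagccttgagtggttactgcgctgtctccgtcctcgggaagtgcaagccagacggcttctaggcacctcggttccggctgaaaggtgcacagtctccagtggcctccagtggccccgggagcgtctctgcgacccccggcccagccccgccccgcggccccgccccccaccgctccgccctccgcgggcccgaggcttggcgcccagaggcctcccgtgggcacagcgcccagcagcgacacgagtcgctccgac

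The genes that hair cells use once they differentiate split in direction, while none of the 7 factors passed. Of 28 such genes 23 were tested, 4 passed as higher and 3 as lower, and 16 did not pass. Their median log2 ratio was 0.011, close to that of all genes tested. Of all genes, 2.26% passed as higher and 2.92% as lower. *Myo7a*, a myosin and early marker of hair cells, was 0.17 ± 0.043 higher on the log2 scale (SD, n = 4; adjusted p = 0.0398), *Myo15*, a myosin of stereocilia, 0.45 ± 0.28 (adjusted p = 0.00031), *Chrna10*, a subunit of the acetylcholine receptor of hair cells, 0.25 ± 0.16 (adjusted p = 0.014) and *Rasd2*, a small GTPase, 0.60 ± 0.36 (adjusted p = 0.00398), all from limma. *Pvalb*, a calcium-binding protein, was −1.23 ± 0.28 (adjusted p = 1.49e-05 from limma) and *Fgf8*, a ligand of inner hair cells, −0.93 ± 0.21 (adjusted p = 0.000405). *Grxcr1*, a gene of stereocilia, was above background in 4 control and in 0 mutant pools and fell to a bound of at least 1.7-fold (limma, adjusted p = 0.00181). For such a bound the bright pools' mean normalised log2 signal was set against that of the dim pools, after each dim value was raised, where lower, to the least signal that any probe well above background had in its pool. *Grxcr1* entered the test only through the control pools, so its p sets signal against background values. With all 8 measurements required above background, 2 of 21 genes of this list passed as lower. *Calb2*, *Slc26a5*, *Strc* and *Ptprq* were above background in 0 pools and *Tmc2* in 1, so these were not tested. *Pvalb* and *Fgf8* passed under each of 12 other settings, whereas *Myo7a* passed under 5 of 12 and *Rasd2* and *Chrna10* under 8 of 12. *Myo15* passed under 10 of 12, not without the dye term (adjusted p = 0.126 from limma), and *Grxcr1* under 10 of 11, not in the authors' value table (adjusted p = 0.0563 from limma). *Myo7a* passed without array 2 but not without arrays 1, 3 or 4, and *Chrna10* did not pass without array 3. The number of higher genes was 2 without array 3 and 6 without array 2.

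**Figure D4:**
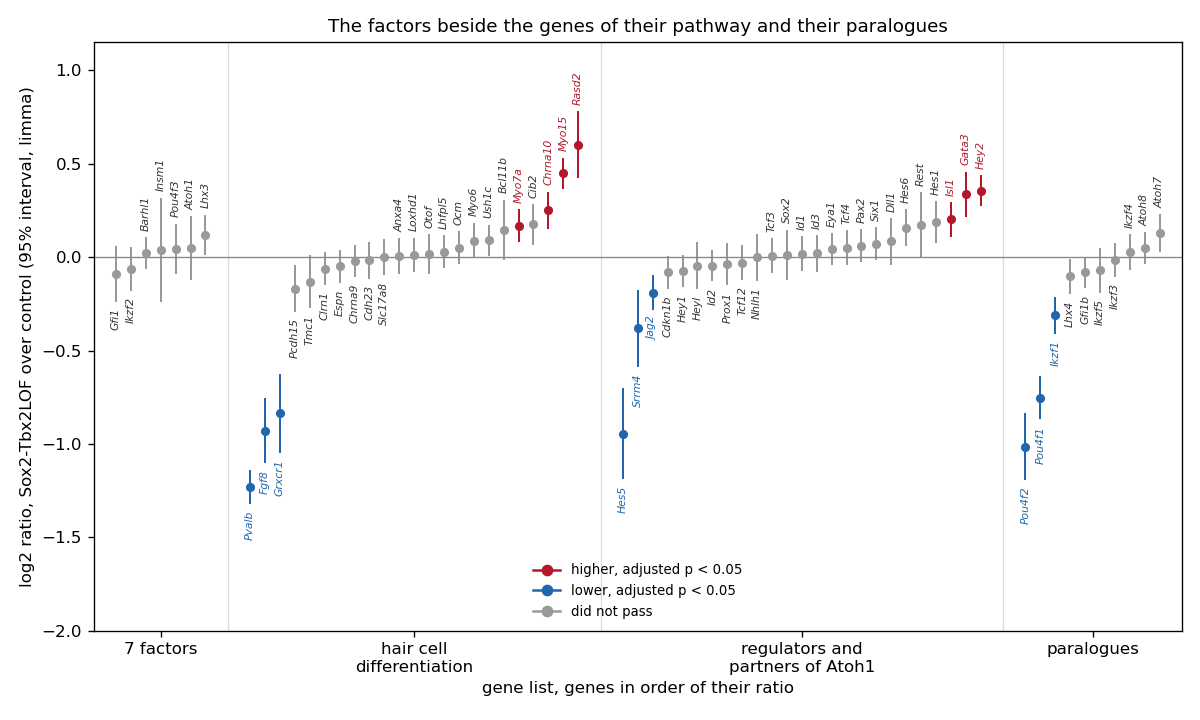
Log2 ratio of mutant over control with its 95% limma interval (vertical axis) for the 7 factors and for the tested genes of the lists on hair cell differentiation, regulators and partners of *Atoh1*, and paralogues, in order of the ratio. Genes that passed are red where higher and blue where lower. The 7 factors lie between −0.089 and 0.12, inside the spread of the grey genes.

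Genes that act on *Atoh1* or with its protein were measured in full, 25 of 25, and 3 passed as higher, 3 as lower and 19 not, with a median log2 ratio of 0.020. *Hey2*, a gene of the Hey family that holds *Atoh1* back, was 0.36 ± 0.033 (SD, n = 4, adjusted p = 0.000969 from limma). *Hes5*, a Notch target of the Hes family that also represses *Atoh1*, was −0.95 ± 0.38 (adjusted p = 0.00198 from limma). *Gata3* and *Isl1*, whose proteins act with ATOH1 in hair cells, were 0.34 ± 0.13 and 0.20 ± 0.16 (adjusted p = 0.00929 and 0.0245). *Jag2*, a Notch ligand of hair cells, was −0.19 ± 0.10 (adjusted p = 0.0312), and *Srrm4*, a splicing factor that counters the repressor REST, was −0.38 ± 0.52 with an adjusted p of 0.04999, at the threshold. The E proteins that pair with ATOH1 (*Tcf3*, *Tcf4*, *Tcf12*) and the *Id* genes whose products compete for them did not pass. Their brightest probes gave log2 ratios from −0.045 to 0.051 (named after their values were seen). Second probes gave −0.0084 for *Tcf3*, −0.0077 for *Tcf4* and 0.35 ± 0.41 for *Tcf12* (SD, n = 4; adjusted p = 0.211 from limma over all probes). *Hey2* passed under each of 12 other settings and without any 1 array, while *Srrm4* passed under 3 of 12 and only without array 2, and *Isl1* passed under 6 of 12 and only without array 4. *Jag2* passed under 7 of 12 and only without array 2, and *Gata3* under 8 of 12 but not without array 3. *Hes5* passed without any 1 array and under 10 of 12, but not for separate channels with no replicate block, with or without the dye term (adjusted p up to 0.145 from limma). The number of higher genes was 1 without array 3, and that of lower genes was 1 without array 1, 3 or 4.

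The paralogues of the 7 factors give a contrast within the families. *Pou4f1* and *Pou4f2*, which like *Pou4f3* encode POU-domain factors and are known in sensory neurons and the retina, were lower in the mutant. *Pou4f1* had a log2 ratio of −0.94, −0.68, −0.68 and −0.71 on arrays 1 to 4, a mean of −0.75 ± 0.13 (SD, n = 4; adjusted p = 0.000172 from limma). *Pou4f2* was above background in 4 control and 0 mutant pools and fell to a bound of at least 1.81-fold (limma, adjusted p = 0.000304). *Ikzf1*, a relative of *Ikzf2* best known in blood cells, was −0.31 ± 0.077 (adjusted p = 0.00547), and its second probe gave −0.23 (adjusted p = 0.0161 over all probes), although it did not pass without array 1 or array 3. The other paralogues tested did not pass, with log2 ratios of 0.13 for *Atoh7*, 0.049 for *Atoh8*, −0.082 for *Gfi1b*, −0.014 for *Ikzf3*, 0.026 for *Ikzf4*, −0.070 for *Ikzf5* and −0.10 for *Lhx4*. In all 3 of 10 tested paralogues passed as lower and 0 as higher, with a median log2 ratio of −0.076, and *Insm2* and *Barhl2* were above background in 0 pools. *Pou4f2* entered the test only through the control pools, so its p sets signal against background values. With all 8 measurements required above background, 2 of 9 paralogues passed as lower. The differences between *Pou4f3* and its paralogues, and between *Ikzf2* and *Ikzf1*, were not tested.

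Several of these genes are also used outside hair cells, *Insm1* and *Atoh1* in neural precursors and *Pou4f1* in sensory neurons, and markers of other cells did differ between the pools. Of 14 neuronal markers tested, 8 passed as lower (*Elavl3* −1.08, *Nefm* −0.72 and *Nefl* −0.48 on the log2 scale with the lowest ratios) and 2 as higher, and their summed log2 level was 15.2 to 15.4 in mutant and 15.3 to 15.5 in control pools. The early neuronal genes *Neurod1* and *Neurog1* were not tested, with *Neurog1* above background in 0 pools. Of 10 Schwann cell precursor markers 4 passed as lower (*Foxd3*, *Fabp7* and *Ngfr* with the lowest ratios) and 1 as higher, with summed levels of 17.4 to 17.6 in mutant and 17.5 to 17.7 in control pools. *Fabp7* and *Ngfr* are also expressed in the cochlear epithelium, so they do not mark glia alone. In the melanocyte list 1 of 9 passed as lower (*Ednrb*), in the mesenchyme list 1 of 10 as higher (*Col1a1*), and in the vestibular and blood lists 0 of 5 and 0 of 6 passed, with an unadjusted p below 0.05 for 2 and 2 in limma. The part of other cell types in the values of the 7 factors was not tested. The labelled tissue showed its epithelial markers, of which 12 of 12 were tested, 2 were higher (*Gata3* and *Isl1*) and 5 lower, among them *Otoa* (−0.76), *Lfng* (−0.52) and *Fgf10* (−0.47).

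The genotype labels were checked on 3 genes. The log2 ratio of *Tbx2* was −0.12 ± 0.098 (SD, n = 4; adjusted p = 0.124 from limma), below 0 on 4 of 4 arrays, and whether its probe lies in the *loxP*-flanked stretch was not analysed here. *Esr1*, whose ligand-binding part is fused to the Cre, was above background only in mutant pools, a rise of at least 4.24-fold (limma, adjusted p = 5.96e-06). It entered the test only through those pools, so its p sets signal against background values. *Sox2*, at which the Cre is inserted, had a log2 ratio of 0.012 (adjusted p = 0.935 from limma).

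**Figure D5:**
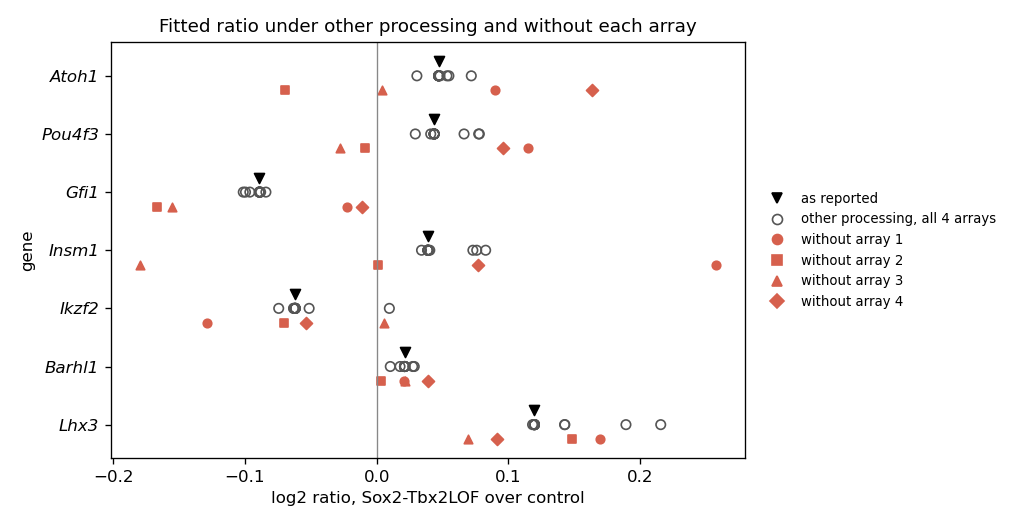
Fitted log2 ratio of mutant over control (horizontal axis) for each gene as reported (black triangles), under other processing of all 4 arrays (open circles) and without each array in turn (orange symbols, named in the legend). Single arrays move *Insm1* between −0.18 and 0.26 and *Atoh1* between −0.069 and 0.16, whereas *Lhx3* stays above 0 and *Gfi1* below 0.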

How the data were processed

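Array and group labels came from the sample records, and pools, tamoxifen and controls from the study's methods. The scanner files of 4 arrays deposited by the authors come from Agilent Feature Extraction 10.7.3.1 (version from the submitters' processing notes), and their intensity values, the brightness of spots and local background in both dyes, are not normalised. The authors' value table gives scores that by their values are signed folds of mutant over control (r of 0.912 to 0.942 with the ratios computed here), of unstated normalisation. Probe names, symbols and mm9 positions were taken from the files, whose header names another array design than the methods do.

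Background was corrected with limma 3.58.1 in R 4.3.3 (normexp, offset 50, which pulls ratios of dim probes towards 0), followed by loess within arrays. Outlier spots (8.29% to 8.56%) were dropped and the 4 spots of a probe averaged. A probe needed 4 of 8 channel measurements well above background, which 27963 of 39429 had, and the brightest stood for its gene. No spot was saturated, 69.2% to 72% of probes were well above background, and the number of arrays limits the precision. Ratios were fitted by lmFit and eBayes with a dye term, with Benjamini-Hochberg adjustment over 21042 genes. Levels are separate channels after Aquantile. The fit was tested on simulated data. The 7 factors, gene lists and tests were chosen with earlier results of these data known. Named beside the factors were list genes that passed (at most 12 a list, 3 per marker list), tested paralogues, 3 label checks and the 2 genes most like each factor over the pools. Of the hair cell differentiation list 2 genes are not reported here. Alternatives are given in the closing section.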

Additional observations from a re-analysis of the deposited data

Results flagged for a closer look

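Of 47 sets of 4 values examined for a single value far from the others, 3 held one, and chance gives about 1 such set in 20. The level of *Insm1* in the mutant pools did so because mutant pool 1 was at 7.17 on the log2 scale and the other mutant pools were between 8.02 and 8.14, with the gap 0.872 of the whole range. The log2 ratio of *Pou4f1* was −0.94 on array 1 and between −0.71 and −0.68 on the other arrays (gap 0.859 of the range). The log2 ratio of *Sox2* was −0.26 on array 3 and between 0.078 and 0.14 on the other arrays (gap 0.835 of the range).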

How the results depend on the processing

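The number of the 7 factors that passed was 0 under each of 12 other settings and without each array, and 0 passed for male minus female pools under the 8 settings run for it. *Ikzf2* changed sign as the mean over its probes (0.0096) and without array 3 (0.0052; lowest without an array −0.1291), *Atoh1* without array 2 (−0.0693; highest 0.1634), *Pou4f3* without array 2 (−0.0086) or 3 (−0.028; highest 0.1152) and *Insm1* without array 3 (−0.1798; highest 0.2576). Among paralogues that did not pass, *Ikzf3* changed sign under median centring (0.0232) and without array 1 (0.0132; lowest −0.0408), and *Ikzf4* without array 2 (−0.0098; highest 0.0627). The cause was not tested. Of the hair cell differentiation genes, 4 passed as higher, but 0 without the dye term, 1 in the value table, 1 for separate channels with no replicate block, 0 with neither block nor dye term, and 2 to 6 without single arrays. Of the regulators, 3 passed as higher, but 1 with processed signals, in the value table and with no replicate block, with or without the dye term, and 1 to 3 without single arrays; 3 passed as lower, but 1 with processed signals, without the dye term and in the value table, 0 with no replicate block, with or without the dye term, and 1 to 3 without single arrays. The setting with neither block nor dye term was chosen after seeing the data. The array pairs a mutant with a control pool, and with the array as a replicate block 0 of 7 factors passed as well. All arrays were on 1 slide and scanned on 1 date, so neither could be fitted as a block, and with 1 array left out the male and female pools could not be compared for want of residual degrees of freedom. With an offset of 10 in place of 50 the log2 ratio was 0.1428 for *Lhx3*, against 0.1197, 0.041 for *Pou4f3*, against 0.0436, and 0.0403 for *Insm1*, against 0.0389.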
